A study of Saccharomyces cerevisiae with 12 samples.

Results

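The state of budding yeast (Saccharomyces cerevisiae) that have spent an hour or more at 39 °C is described here. It is represented by the 3 heat libraries taken after 60, 90 and 120 min at 39 °C, set against the 2 untreated libraries of the series, which makes 5 of its 12 libraries. They were chosen by their labelled time, with earlier results of these data known. The table lists 5045 genes, of which 4937 reached a 12-library mean of 10 and were tested, and 108 were left out.

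All 12 libraries are polyA RNA from 1 strain, labelled Sis1-AA with the source name DPY1284, grown in YPD (rich medium with glucose). In this strain the J-domain protein Sis1, a partner of the Hsp70 chaperones, can be drawn out of the nucleus by rapamycin (the anchor-away method), and the untreated cells carry the same modification. One untreated library was labelled as the control at 30 °C and opens the heat course, and the other is labelled as the control of the rapamycin course, with no temperature given. For comparison, the early heat libraries were taken after 15 and 30 min at 39 °C, and the late rapamycin libraries after 60, 90 and 120 min in 1 µM rapamycin. Each time has 1 library, nothing in the labels says whether the 5 came from separate cultures, and no time point has a replicate.

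In yeast the heat shock response has a pair of main arms. The transcription factor Hsf1 drives chaperone genes through heat shock elements in their promoters, and Msn2 and Msn4 drive a general stress programme through stress response elements, which includes stores of trehalose and glycogen. At the same time cells turn down the genes that build ribosomes, among the most costly work of a growing cell. Both arms are known to peak soon after the shift and to relax as cells resume growth at the higher temperature.

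Reads assigned to listed genes numbered 2991418 and 4379304 in the untreated libraries, and 3958831, 3157887 and 3748144 at 60, 90 and 120 min. Values below are normalized read counts as deposited, given in the order 60, 90 and 120 min for the late heat libraries, and in the order heat course, rapamycin course for the untreated ones. A gene with no read could still hold up to 3 reads by counting error alone, and 3 reads are worth 2.44 to 4.28 in that unit. The summed normalized values were 3048499 to 3328239 in the late heat libraries and 4145739 to 4266203 in the untreated ones. The values are relative to the other RNA of a library, and RNA per cell was not measured. Changes are differences of means of log2(value + 1), with a standard error (SE) from limma, and a gene is called where the Benjamini-Hochberg adjusted p over all 4937 genes is under 0.05. The residual of that fit holds the drift between 60 and 120 min and the difference between the 2 untreated libraries. A p-value here thus speaks of these 5 libraries, not of repeated cultures.

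The late libraries lay close to each other. Over the tested genes the log2 difference between 60 and 90 min had an SD of 0.223, and that between 90 and 120 min an SD of 0.208, with 11 and 8 genes differing at least 2-fold. The 2 untreated libraries differed from each other with an SD of 0.33 and by at least 2-fold at 40 genes. The steps before were larger, with an SD of 0.525 and 339 such genes between 15 and 30 min, and an SD of 0.551 and 423 genes between 30 and 60 min. From 60 to 120 min the SD was 0.31 and 35 genes moved at least 2-fold, 16 up and 19 down. Scaled to equal totals the count was 43, of which 81.4% moved up in place of 45.7%.

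The upstream sequences of a few genes that carry the main patterns are shown here, because the shares of windows that hold 4 motifs differ between the gene lists described below. Each window runs from 300 to 51 bases before the annotated start codon, is written 5′ to 3′ on the gene's strand, and comes from the RefSeq genome of assembly R64, which sacCer3, the build named in the submitters' processing notes, corresponds to. Capitals mark matches, on either strand, to the stress response element AGGGG in the first 3 windows, also to the heat shock element in that of HSP42 (the units GAA, TTC and GAA, each pair 2 bases apart, or the same on the other strand), and to the PAC element GATGAG and the RRPE element AAAATTTT in the last 2, elements known from genes of ribosome assembly. These 5 windows were chosen after their matches were seen.
HSP12 (chrVI:106956-107205, plus strand): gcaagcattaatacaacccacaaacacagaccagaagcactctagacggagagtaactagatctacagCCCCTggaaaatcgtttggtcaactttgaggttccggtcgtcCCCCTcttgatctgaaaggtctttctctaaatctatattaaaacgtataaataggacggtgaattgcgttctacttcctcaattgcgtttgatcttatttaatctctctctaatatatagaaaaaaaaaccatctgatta
TSL1 (chrXIII:70324-70573, plus strand): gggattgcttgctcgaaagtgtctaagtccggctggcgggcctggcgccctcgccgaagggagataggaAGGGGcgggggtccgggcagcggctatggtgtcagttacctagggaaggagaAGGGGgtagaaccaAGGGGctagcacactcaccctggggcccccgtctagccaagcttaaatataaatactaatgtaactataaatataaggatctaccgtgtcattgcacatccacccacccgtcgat
HSP42 (chrIV:806321-806570, plus strand): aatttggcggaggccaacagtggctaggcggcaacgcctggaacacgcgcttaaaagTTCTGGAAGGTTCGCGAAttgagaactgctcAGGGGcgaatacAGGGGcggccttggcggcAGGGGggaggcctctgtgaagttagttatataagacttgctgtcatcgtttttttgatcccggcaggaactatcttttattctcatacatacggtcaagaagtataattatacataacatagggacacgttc
NSR1 (chrVII:807707-807956, minus strand): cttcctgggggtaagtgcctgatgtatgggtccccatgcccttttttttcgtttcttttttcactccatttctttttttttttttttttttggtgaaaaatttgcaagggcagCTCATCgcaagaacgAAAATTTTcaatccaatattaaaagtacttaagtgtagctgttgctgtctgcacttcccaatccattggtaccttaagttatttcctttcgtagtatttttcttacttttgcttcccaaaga
NOP7 (chrVII:695117-695366, plus strand): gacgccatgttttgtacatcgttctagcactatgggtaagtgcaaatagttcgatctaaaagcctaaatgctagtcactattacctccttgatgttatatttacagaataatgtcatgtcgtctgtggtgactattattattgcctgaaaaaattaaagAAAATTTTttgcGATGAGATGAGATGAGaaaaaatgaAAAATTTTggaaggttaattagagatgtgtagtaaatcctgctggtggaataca

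Over all 5023 genes with such a window, 18.8% held AGGGG, 0.876% held the heat shock element, 17.7% held GATGAG and 9.74% held AAAATTTT, counting both strands. AGGGG stood in 31 of 41 windows of the general stress genes (75.6%). The heat shock element stood in 11 of 35 windows of a list of chaperones and other genes linked to Hsf1 (31.4%), and AGGGG also in 11. GATGAG stood in 106 of 122 windows of the ribosome assembly genes (86.9%) and AAAATTTT in 96 (78.7%). In the 138 windows of genes with names of ribosomal proteins these shares were 11.6% and 6.52%. The matches are letters in a window and not measured binding sites. The lists were drawn up by function or by the factors that these elements are known from. High shares follow in part from that choice and are no result of the values measured here. HSP26, SIP18 and TMA10, among the genes that rose most, hold none of the 4 motifs in this window, and HSP82 holds 1 AGGGG, 1 GATGAG and no heat shock element of this exact form.

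More than 2 in 3 genes differed between the late heat libraries and the untreated ones. Of 4937 genes 3542 were called (71.7%), 1643 higher (33.3%) and 1899 lower (38.5%), and every count below is to be read against these shares. At least 2-fold changes were called at 806 genes upward (16.3%) and 933 downward (18.9%). All 3 late libraries lay above both untreated ones at 1849 genes (37.5%) and below both at 2160 genes (43.8%). The split depends on scaling. Higher genes were 46.4% of the calls as deposited and 65.5% after libraries were scaled to equal totals, which moved the median of all genes from -0.08 to 0.31 on the log2 scale.

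**Figure D1:**
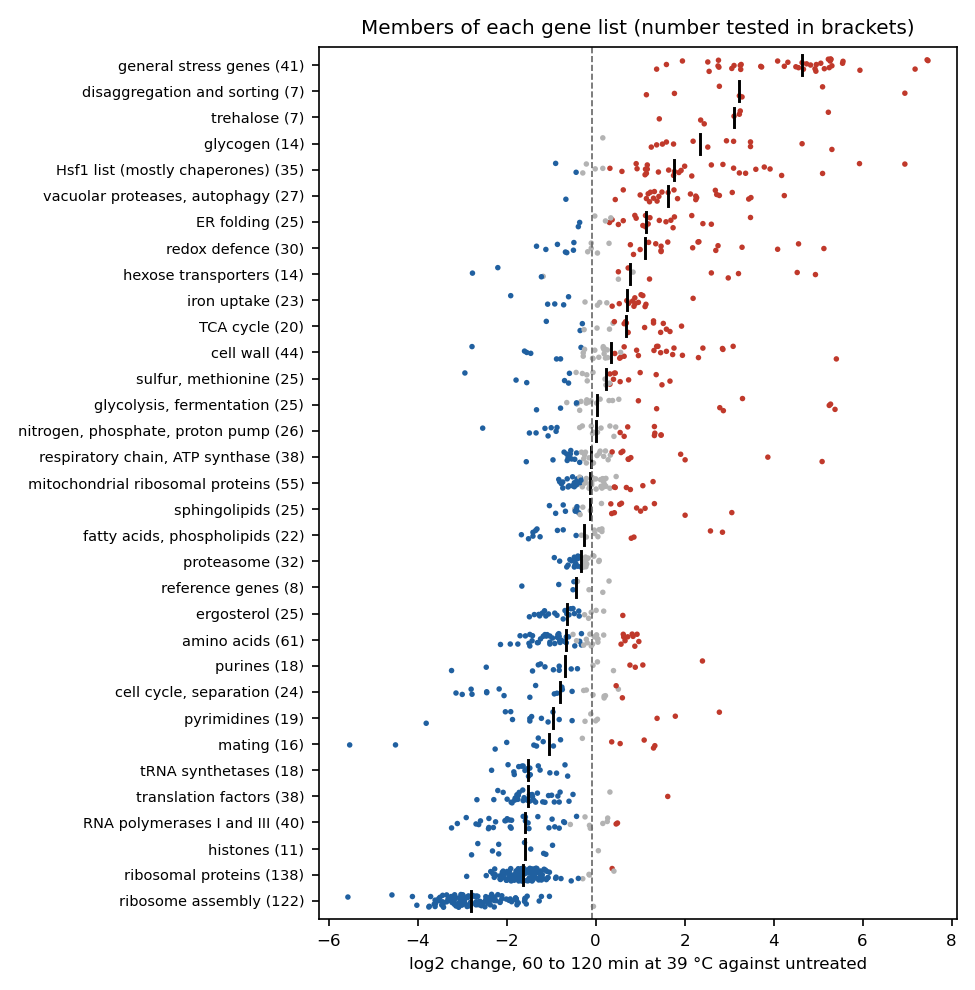
Log2 change of each member of 33 gene lists at 60 to 120 min at 39 °C against untreated, 1 point per gene, red where called higher, blue where called lower and grey where not called. Black bars are list medians and the dashed line is the median of all genes. General stress genes lie farthest right (median 4.64) and ribosome assembly genes farthest left (median -2.81).

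Small stress proteins led the rises. HSP12 (YFL014W), a small membrane-associated protein of the general stress response on chromosome VI, bases 107256 to 107585, stood at 187 and 213 untreated and at 40184, 33972 and 32908 in the late heat libraries. This is a log2 change of 7.47 ± 0.16 (SE), or 177-fold, with an adjusted p of 9.07e-10 in limma. DDR2 (YOL052C-A), a small multistress protein, went from 35.6 and 47.3 to 6200.2, 6025 and 6076, and HSP26 (YBR072W), a small heat shock protein that holds unfolded proteins, from 72.7 and 55.9 to 6722, 7928 and 9689. Their log2 changes were 7.18 ± 0.14 and 6.95 ± 0.17 (SE). For each of these genes the late libraries lie more than 10 times above the highest untreated library, and the groups do not overlap. FMP45, a membrane protein of the cell cortex, rose by a log2 change of 5.94, TMA10, a ribosome-associated protein, by 5.93, and RTC3, DCS2 and STF2 by 5.74, 5.56 and 5.55.

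A pair of the genes in this group was close to undetected without heat, so that the size of the rise is poorly fixed. SIP18, a hydrophilin, had 1 and 4 reads in the untreated libraries and 502, 450 and 1341 reads in the late ones, a ratio of normalized counts of 230.0 with an exact 95% counting interval of 98.6 to 710.0. SPG4, named for survival in stationary phase, had 1 and 3 reads untreated and 189, 121 and 171 late, a ratio of 60.4 (interval 23.4 to 223.0). Fitted log2 changes of these genes, 7.45 and 5.53, depend on the pseudocount.

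The largest falls were of genes of ribosome assembly, of the pheromone and of a purine salvage enzyme. DBP2 (YNL112W), an RNA helicase, stood at 3826 and 3191 untreated and at 52.1, 81.2 and 89.5 late, a log2 change of -5.57 ± 0.21 (SE). NSR1 (YGR159C), a nucleolar protein needed for the small ribosomal subunit, went from 4808 and 2989 to 151, 163 and 158, and NOP7 (YGR103W), a factor of the large subunit, from 3453 and 4801 to 218, 256 and 225. AAH1, the adenine deaminase, went from 2007 and 1896 to 70.6, 97.6 and 92.7. In each case all 3 late libraries lie more than 10 times below the lower untreated library, and the windows of NSR1 and NOP7 shown above hold both PAC and RRPE. INA1, DHR2, a helicase of ribosome assembly, ECM1, a factor of large subunit export, and FAF1, which acts in small subunit processing, fell by log2 changes of -4.06, -4.02, -3.85 and -3.82. Among these 20 genes the highest adjusted p in limma was 2.13e-07 (DHR2), and in all 20 the late libraries lie beyond both untreated ones, which the choice of genes required.

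**Figure D2:**
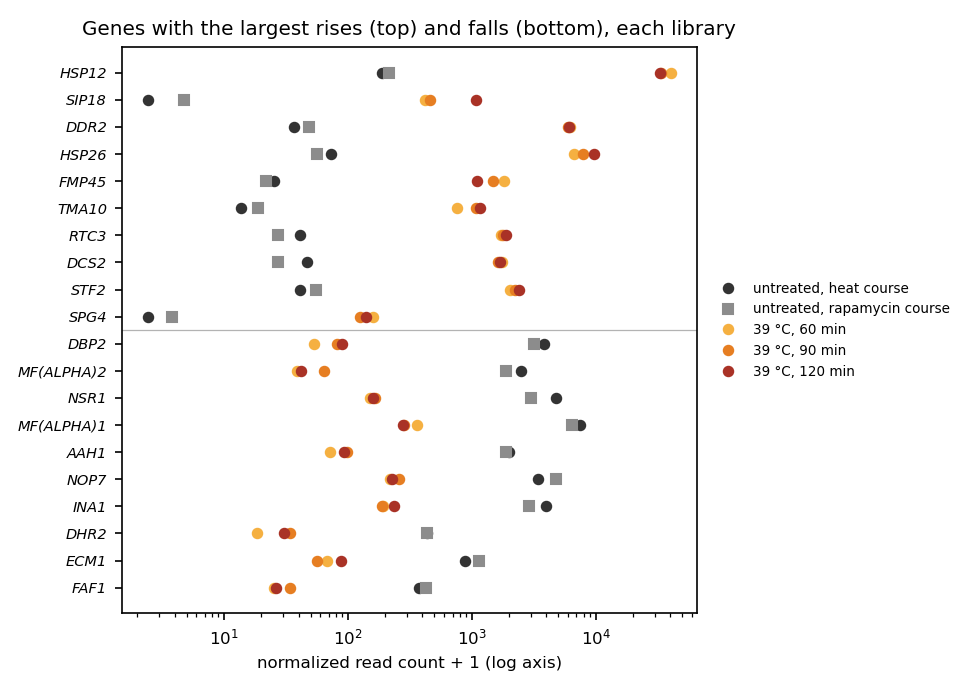
Normalized read count + 1 on a log axis in each of the 2 untreated and 3 late heat libraries, for the 10 genes with the largest rises (top) and the 10 with the largest falls (bottom). The late libraries of each gene lie apart from the untreated ones, which the choice of genes required. For HSP12 they stand at 40184, 33972 and 32908. They spread more in FMP45, at 1825, 1486 and 1108, and in SIP18, with 502, 450 and 1341 reads.

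Chaperones stayed high at 39 °C. A list of 35 genes linked to Hsf1 holds mostly chaperones and their partners in the cytosol and mitochondria, with KAR2, LHS1 and ERO1 of the ER, which also count in the ER list below, and with UBI4, RPN4, GRE3 and TMA10, which are not chaperones. Of the 35, 29 were called higher and 2 lower, with a median log2 change of 1.75 beside -0.08 for all genes. HSP104 (YLL026W), the disaggregase that pulls proteins out of aggregates, stood at 1009.7 and 1101 untreated and 9894, 9854 and 9854 late, a log2 change of 3.23 ± 0.14 (SE). The 3 late values are nearly equal. HSP42 (YDR171W), a small heat shock protein that gathers misfolded proteins, went from 58.5 and 86.2 to 2549.9, 2494 and 2359, and BTN2, a sorting factor for such proteins, from 215 and 254 to 797, 785 and 816. The groups do not overlap in either gene. All 7 tested members of a list of 9 disaggregation and sorting genes, which shares members with the Hsf1 list, were called higher, with a median of 3.23 (6 of 7 with quantile normalization).

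Within the Hsp70 and Hsp90 families the stress-induced forms made up a larger share of the RNA. SSA4, the strictly heat-induced Hsp70, went from 355 and 332 to 4303, 4415 and 3863, and SSA3, its relative, from 209.6 and 248 to 1979.9, 1612 and 1451. SSA1 rose by a log2 change of 3.37 ± 0.14 (SE), while SSA2, the constitutive form, fell (-0.90), a call lost with quantile normalization (-0.12, adjusted p 0.427 in limma). Per length, SSA1 made up 10.2% of the summed SSA1 and SSA2 level untreated and 69.0% late. HSP82, the inducible Hsp90, rose by 4.18 ± 0.14 (SE) and went from 3.76% to 39.0% of the Hsp90 pair, while HSC82 stood at 9666 and 11262 untreated and 11867, 12531 and 10599 late and was not called as deposited. It was called higher with equal totals (log2 change 0.55) and quantile normalization (0.82). SSA1 and SSA2 are 96.4% identical in sequence and HSP82 and HSC82 91.8%, so how reads were divided within these pairs is uncertain.

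The Hsp40 and organelle members were uneven. SIS1, the J-protein modified in this strain, stood at 670.3 and 443 untreated and 1434, 1471 and 1456 late and rose by a log2 change of 1.41 ± 0.16 (SE). YDJ1, the most abundant cytosolic J-protein, went the other way, from 2711 and 2802 to 2024, 2033 and 2030.1, and was called lower (log2 change -0.44, adjusted p 0.00798 in limma), though quantile normalization turned its change to 0.20, and the call was lost with equal totals (-0.05), in 1 fit over all 12 libraries (adjusted p 0.261) and without the 90 min library (adjusted p 0.0511). With SSA2 it makes the 2 lower calls of the list. Mitochondrial HSP78, a disaggregase, and HSP60, the chaperonin, rose by 3.10 and 1.92, and STI1, the co-chaperone that links Hsp70 to Hsp90, by 2.0. The Hsp110 SSE1 was not called (5063 and 5664 untreated, 3651, 4857 and 4748 late), though quantile normalization turned it to a higher call (0.62).

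The general stress genes had the highest median of the 33 lists. All 41 members of a list of general stress genes, many of them known targets of Msn2 and Msn4, were called higher, each at least 2-fold. Their median log2 change was 4.64. The median was 4.68, 4.57 and 4.76 at 60, 90 and 120 min, so the list median did not decline over the hour. Taken per gene, the median log2 difference from 60 to 120 min was -0.08, beside -0.03 for all genes. CTT1 (YGR088W), the cytosolic catalase, stood at 127 and 86.2 untreated and at 2464, 2506 and 2492 late, a log2 change of 4.56 ± 0.16 (SE). HSP30, a plasma membrane protein that acts on the proton pump, went from 85.6 and 89 to 1485, 1492 and 2492, with the 120 min library the highest.

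Genes of the reserve sugars rose with them. All 7 trehalose genes were called higher (median log2 change 3.11). TSL1, a regulatory subunit of trehalose synthase, went from 203 and 155 to 6732, 7124 and 6185, TPS1, which makes trehalose phosphate, from 660.3 and 559 to 5729, 5969 and 5623, and TPS2, which removes the phosphate, from 405 and 388 to 3207, 3498 and 3592. The enzymes that make trehalose and one that degrades it moved together, since the acid trehalase ATH1 went from 119.8 and 92.8 to 935, 1004 and 1059.8. Of 14 glycogen genes 13 were called higher and none lower (median 2.35). PGM2, the phosphoglucomutase that opens the path to glycogen, rose by a log2 change of 5.31 ± 0.15 (SE), the synthase gene GSY2 by 2.52 ± 0.16 and the phosphorylase gene GPH1 by 4.64 ± 0.25. GPH1 stood at 3228, 2041 and 1509.5 late and so declined over the hour, while staying far above its untreated 81.3 and 89.

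**Figure D3:**
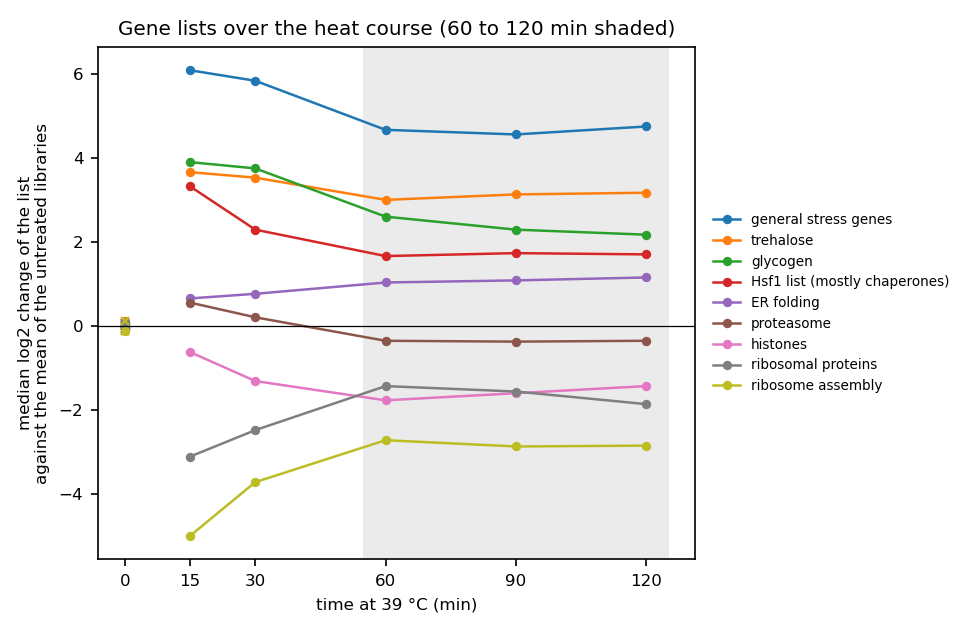
Median log2 change of 9 gene lists against the mean of the untreated libraries, by time at 39 °C in minutes, 1 library per time, with the 2 untreated libraries at 0 and the late times shaded. The lines moved most before 60 min. After it the general stress genes stayed near level, at 4.68, 4.57 and 4.76. Other lists kept moving, with ribosomal proteins at -1.43, -1.56 and -1.86, glycogen at 2.61, 2.30 and 2.18 and histones at -1.77, -1.60 and -1.43.

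Genes of sugar entry changed both ways. Of 14 tested hexose transporter genes 8 were called higher and 3 lower. HXT5, a transporter known from slow growth, went from 58.5 and 49.2 to 1381, 1623 and 2102, and the high-affinity transporter HXT7 from 15.7 and 28.4 to 619.6, 544 and 396. HXT7 is 99.8% identical to HXT6, whose own row was not analysed here, so the value may hold reads of both. HXT2 fell (log2 change -2.77). The low-affinity transporters HXT1 and HXT3 were lowest at 60 min and are described with the drift below.

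Of 25 genes of glycolysis and fermentation 8 were called higher and 4 lower, and the median log2 change was 0.02, which turned to -0.04 among genes with a mean of at least 50 and to 0.41 with equal totals (13 higher and 1 lower). The 3 largest rises were of minor forms of an enzyme. TDH1 stood at 98.4 and 100.3 untreated and 4847, 3642 and 4164 late, the glucokinase GLK1 went from 317 and 205 to 10969, 10288 and 8739, and the hexokinase HXK1 from 103 and 96.6 to 3755, 4219.5 and 3558. HXK2, the hexokinase of cells growing on glucose, fell (log2 change -1.33). Per length, HXK1 made up 1.97% of the HXK1 and HXK2 pair untreated and 66.1% late (65.0% to 67.4% over the libraries), and GLK1 4.87% and 83.1% of its pair with HXK2. GLK1 overlaps another annotated gene, YCL042W, and TDH1 is 90.2% identical to TDH2.

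The same kind of shift was seen in further pairs, which were picked after their values were seen and are given without a test. The minor enolase ENO1 went from 4.44% to 33.9% of its pair with ENO2, whose sequence is 94.9% identical. In the pentose phosphate pathway GND2 went from 1.26% to 46.8% of the phosphogluconate dehydrogenase pair, TKL2 from 1.32% to 37.8% of transketolase and NQM1 from 2.01% to 33.4% of transaldolase. The minor forms PYK2, GPM2 and PDC6 went from 0.29%, 0.108% and 0.0161% to 2.31%, 2.09% and 0.213% and so stayed a small part of their pairs. PDC6 had only 3 and 6 reads untreated and 46, 39 and 60 late, so its untreated share is poorly fixed. The major forms went both ways. The level per length went from 47300 to 57500 for TDH3 and from 17000 to 24300 for GPM1, and from 26400 to 23300 for ENO2, from 18500 to 15900 for CDC19, from 18300 to 11800 for PDC1 and from 3700 to 1660 for GND1.

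**Figure D4:**
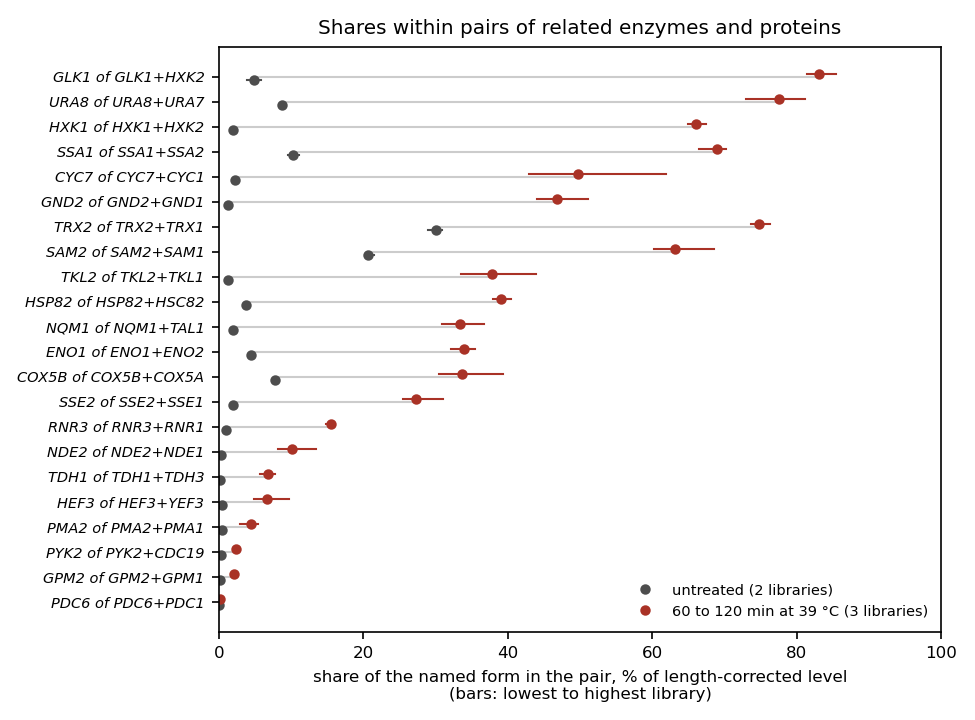
Share of the named form in the summed length-corrected level of a pair, in percent, for 22 pairs, as the mean of the 2 untreated and of the 3 late heat libraries, with bars from the lowest to the highest library. HXK1 moved from 1.97% to 66.1% and CYC7 from 2.23% to 49.7%, with no overlap between the groups in these pairs.

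Respiration showed no single direction. Of 38 genes of the respiratory chain and ATP synthase 10 were called higher and 13 lower, with a median log2 change of -0.11 that turned to 0.28 with equal totals (18 higher, 2 lower) and 0.34 with quantile normalization. The largest rises were again of alternative forms. NDE2, an external NADH dehydrogenase, had 5 and 9 reads untreated and 334, 264 and 430 late, CYC7, the second cytochrome c, went from 37.1 and 41.6 to 684, 567 and 523, and COX5B, the second form of a cytochrome oxidase subunit, from 147 and 138 to 657, 534 and 542. Of 20 genes of the tricarboxylic acid cycle 13 were called higher and 3 lower (median 0.68). The succinate dehydrogenase subunits SDH1, SDH2 and SDH4 rose by log2 changes of 1.67, 1.93 and 1.59.

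Oxidant defence rose in part. Of 30 genes 18 were called higher and 7 lower, with a median log2 change of 1.10 (20 and 3 with equal totals). SRX1, the sulfiredoxin that repairs peroxiredoxins, had 2 and 2 reads untreated and 148, 117 and 127 late, a ratio of 49.2 with an exact 95% counting interval of 19.1 to 182.0, and its fitted change was the largest of the list. Among members with a mean of at least 50, CTT1 rose most, followed by GPX1, a glutathione peroxidase, at 49.9 and 66.3 untreated and 905, 988 and 1104 late, and TSA2, a peroxiredoxin, from 44.2 and 57.8 to 570.0, 482 and 461. The cytosolic thioredoxins crossed over, TRX1 falling (log2 change -1.33) and TRX2 going from 30.0% to 74.8% of the pair per length.

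Genes of protein folding in the endoplasmic reticulum (ER) rose and did not decline. Of 25 members 20 were called higher and 2 lower, with a median log2 change of 1.12, and the median was 1.04, 1.09 and 1.16 at 60, 90 and 120 min. KAR2 (YJL034W), the ER Hsp70, stood at 3962 and 4032 untreated and at 21017, 26204 and 25762 late, a log2 change of 2.60 ± 0.21 (SE). MPD1, a disulfide isomerase, went from 228 and 274 to 1206, 1289 and 1535, YET2, a small ER membrane protein, from 27.1 and 27.4 to 248, 299 and 422, and ERO1, which feeds disulfides into the ER, from 646 and 476 to 2276, 2421 and 2783. SEC63, part of the import channel, was one of the lower calls (log2 change -0.39), which turned to 0.16 with quantile normalization and was 0.00 with equal totals. It was not called without the library of 60 or 90 min or the untreated library of the rapamycin course, with log2 changes of -0.34, -0.37 and -0.33.

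The cell wall list held strong changes both ways. Of 44 tested genes 21 were called higher and 7 lower (median 0.35, while the 2 untreated libraries differed by a median of 0.35 over this list), and with equal totals 31 higher and 5 lower. PIR3, a covalently bound wall protein, went from 99.8 and 59.6 to 4779, 3259 and 2358, and PST1, a wall protein of the integrity pathway, from 747 and 613 to 8109, 4219.5 and 3513. Both were highest at 60 min. ROM1, an activator of the GTPase Rho1 at the head of that pathway, held level at 1459, 1491 and 1673 against 181 and 178 untreated, and the kinase of the pathway, SLT2, rose by a log2 change of 0.96 ± 0.19 (SE). UTR2, an enzyme that links chitin to glucan, fell (log2 change -2.78).

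Of 25 ergosterol genes 19 were called lower and 1 higher (median -0.65), while the lower calls were 11 with equal totals and 12 with quantile normalization, and the higher calls 3 in each. ERG13, ERG6 and ERG3, enzymes of early and late steps, fell, with log2 changes of -1.49, -1.38 and -1.28, and HMG2, a form of the rate-limiting reductase, was the higher call. In the list of fatty acids and phospholipids 4 of 22 were called higher and 10 lower, with a median of -0.27 that turned to 0.13 with equal totals (10 higher, 8 lower) and 0.15 with quantile normalization. INO1, which makes inositol phosphate, went from 68.5 and 72.9 to 525, 511 and 515, OPI3, a phospholipid methyltransferase, from 472 and 356 to 3064, 2398 and 2027, and FAA4, an acyl-CoA synthetase, from 2888 and 2236 to 647, 852 and 919. Of 25 sphingolipid genes 11 were higher and 9 lower, with a median of -0.12 that turned to 0.27 with equal totals (12 higher, 2 lower) and 0.06 with quantile normalization. The ceramidases YPC1 and YDC1 rose by 3.06 and 2.01, and RSB1, a transporter of sphingoid bases, by 1.32.

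The growth programme stayed low. Of 122 genes of ribosome assembly 121 were called lower, all at least 2-fold, and none higher, with a median log2 change of -2.81, and the median was -2.72, -2.87 and -2.85 at 60, 90 and 120 min. Of 138 genes with names of ribosomal proteins, which take in RPP1, not a ribosomal protein, 133 were called lower and 1 higher (median -1.63). This list is called ribosomal protein genes throughout. RPL9A (YGL147C) went from 10432 and 12309.5 to 1911, 1538 and 1199.7, RPS6A from 3499.8 and 4042 to 801, 694 and 570.1 and RPS31, which carries ubiquitin as a fusion, from 26573 and 35126 to 6427, 6643 and 4956. In RPL9A and RPS6A the 120 min library was the lowest. The ribosomal protein median went from -1.43 at 60 min through -1.56 to -1.86 at 120 min. RPL15B, a minor copy, was the higher call (log2 change 0.37, adjusted p 0.0365 in limma), which was lost without 4 of the 5 libraries in turn (adjusted p 0.0501 to 0.142) and with quantile normalization (adjusted p 0.219). RPL9A is 94.7% identical to its partner RPL9B, and reads of such pairs can be split.

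The machinery around the ribosome fell as well. Of 40 genes of RNA polymerases I and III 31 were called lower and 2 higher (median -1.58). The polymerase I subunits RPA34, RPA43 and RPA49 fell, with log2 changes of -3.24, -3.11 and -2.91, and TFC6, a subunit of a polymerase III factor, was among the higher calls (0.49). Of 38 translation factors 36 were called lower and 1 higher (median -1.52), and all 18 aminoacyl tRNA synthetases were called lower (median -1.52). The elongation factor YEF3 went from 31805 and 26937 to 5354, 4797 and 3797, while its relative HEF3, the higher call, went from 117 and 95.6 to 269.9, 321 and 406. Per length HEF3 still made up 6.67% of that pair. TIF3 and TIF4631, initiation factors, fell (-2.29 and -2.20), as did the synthetases KRS1 (lysine), WRS1 (tryptophan) and ILS1 (isoleucine), with log2 changes of -2.34, -1.97 and -1.84. Of 55 genes with names of mitochondrial ribosomal proteins, which take in MRP8, not an established one, 6 were called higher and 18 lower, with a median of -0.12 that turned to 0.27 with equal totals (21 higher, 3 lower). MRPL28 rose by 1.06, and MRPS17 fell (-0.83).

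Genes that make nucleotides and amino acids held more lower than higher calls, under equal totals by less. Of 18 purine genes 11 were called lower and 4 higher (median -0.68), of 19 pyrimidine and nucleotide genes 12 lower and 3 higher (median -0.96) and of 61 amino acid genes 37 lower and 10 higher (median -0.66). With equal totals the lower and higher calls were 9 and 6, 11 and 5, and 29 and 17. GUA1, which makes GMP, went from 4789 and 3589 to 465, 445 and 406, and IMD4, an IMP dehydrogenase, fell (log2 change -2.46). The CTP synthase URA7 went from 2872 and 2742 to 172, 192 and 238, and its relative URA8 from 8.67% to 77.6% of the pair per length. ADE17 ran against its list, from 248 and 212 to 1724, 1191 and 870.3, and RNR3, the damage-inducible ribonucleotide reductase, from 24.2 and 16.1 to 136, 146 and 142. URA1 fell (-2.03), as did the amino acid genes ASN1, PRO1 and ARO7 (-2.14, -1.92 and -1.75), while ARG5,6 rose by 0.97. IMD4 is 87.2% identical to IMD3 and overlaps a noncoding gene, YNCM0005C.

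In the list of sulfur and methionine genes 11 of 25 were called higher and 6 lower (median 0.23). SAM1, a synthetase of S-adenosylmethionine, fell (log2 change -2.94), SAH1, which clears its product, fell (-1.79), and STR3, a cystathionine lyase, rose by 1.67. Of 23 iron genes 14 were higher and 5 lower (median 0.70). FET3, the copper oxidase of high-affinity uptake, fell (-1.91), and the reductases FRE2 and FRE5 rose by 2.19 and 1.13. Of 26 genes of nitrogen and phosphate uptake and the proton pump 8 were called each way (median 0.00), and with equal totals 13 higher and 8 lower. PMA1, the proton pump, went from 40631 and 22964 to 9936, 10517 and 12306, the acid phosphatase PHO3 fell (-2.54), and the proline permease PUT4 rose by 1.47. PHO3 is 86.7% identical to PHO5. The 2 untreated libraries of PMA1 differ more than the 3 late ones do.

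Vacuolar and proteasomal genes parted. Of 27 genes of vacuolar proteases and autophagy 26 were called higher and 1 lower (median 1.63). PAI3, an inhibitor of vacuolar protease A, went from 22.8 and 18 to 448, 325 and 442, PBI2, an inhibitor of protease B, from 74.2 and 104 to 1056, 936 and 996, and ATG34, a receptor of selective autophagy, from 28.5 and 57.8 to 403, 433 and 524. ATG5 was the lower call (-0.67), which was lost with equal totals (-0.28, adjusted p 0.18 in limma). Of 32 proteasome genes 17 were called lower and none higher, with a median of -0.34 that turned to 0.06 with equal totals (4 higher, 2 lower) and was -0.01 with quantile normalization (3 each way). PRE9, RPN8 and RPN2, subunits of the core and the cap, fell, with log2 changes of -0.93, -0.81 and -0.65. The call of RPN2 was lost with equal totals (-0.26) and quantile normalization (-0.09).

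Histone and cell separation genes were low. Of 11 histone genes 10 were called lower and none higher (median -1.60). HTB2, a histone H2B, went from 2372 and 2228 to 268, 326 and 418, and HTA2, a histone H2A, from 2673 and 3344 to 393, 441 and 615, in both cases lowest at 60 min, while HTB1 fell (log2 change -2.32). HHO1, the linker histone, was not called (268 and 158 untreated, 184, 229 and 233 late). HTA2 is 94.1% identical to HTA1 and HTB2 88.8% to HTB1. Of 24 cyclin, cell cycle and separation genes 15 were called lower and 2 higher (median -0.81), and with equal totals 11 lower and 6 higher. CTS1, the chitinase that parts mother from daughter, went from 8737 and 5707 to 1278, 593 and 674, and DSE1 and DSE2, daughter-specific genes of the same step, fell (-2.80 and -3.0). The G1 cyclins CLN1 (307 and 321 untreated, 240.4, 278 and 298 late) and CLN2 (434 and 261 untreated, 268, 337 and 372 late) were not called. The mitotic cyclin CLB2 fell, from 475 and 412 to 37.8, 62.7 and 108. PCL2 was among the higher calls (log2 change 0.60), but not without the 60 min library (0.48) or the untreated library of the rapamycin course (0.41), nor with quantile normalization (0.48) or no filter on low values (adjusted p 0.0528).

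Pheromone genes fell strongly. MF(ALPHA)1, the main gene of the α-factor pheromone, went from 7452 and 6441 to 359.8, 284 and 277, and MF(ALPHA)2, the minor one, from 2490.1 and 1880.1 to 37.8, 62.7 and 40.7. The α-agglutinin gene SAG1 and STE3, the receptor for the partner's pheromone, fell with log2 changes of -2.26 and -2.0. Of 16 tested mating genes 10 were called lower and 5 higher (median -1.06). STE2, the receptor of the opposite mating type, was at 104 and 109.8 untreated and 257, 276 and 277 late.

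Of 8 reference genes often used as standards 4 were called lower and none higher (median -0.45), while with equal totals 2 were called each way (median -0.06). TAF10, UBC6 and ALG9 fell, with log2 changes of -1.66, -0.83 and -0.51. The call of ALG9 was lost with equal totals (-0.12) and quantile normalization (-0.29). ACT1, the actin gene, stood at 14848 and 12371 untreated and 13298, 12609 and 10773 late and was not called (log2 change -0.15 ± 0.22, SE), with 0.24 under equal totals and 0.53, a higher call, under quantile normalization.

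Against the acute state of 15 and 30 min the late libraries differed at 1832 genes (37.1%), 993 higher (20.1%) and 839 lower (17.0%). No untreated library enters this comparison, and the spread of its fit includes the step from 15 to 30 min, over which 339 genes differ at least 2-fold. The count rests on single libraries. It was 1015, 202 and 588 without the library of 60, 90 and 120 min, and 1405 and 2582 without that of 15 and 30 min. A test for differences beyond 2-fold called 1 gene. The split also moved with scaling, from 54.2% higher as deposited to 85.9% higher with equal totals. Calls per list in this comparison, given below, were not counted without single libraries.

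Most genes of the Hsf1 and general stress lists were lower late than early. Of the 35 genes of the Hsf1 list 28 were called lower and none higher (median log2 difference -1.46), and of the 41 general stress genes 32 lower and 1 higher (median -1.33). SSA4 (YER103W) stood at 81563 and 26477 at 15 and 30 min and at 4303, 4415 and 3863 late, a log2 difference of -3.47 ± 0.45 (SE), with an adjusted p of 0.00639 in limma. HSP104 stood at 56611 and 22932 early and HSP12 at 59064 and 68186. Late SSA4 and HSP104 lie below both early libraries. So do all late values of HSP12, yet its log2 difference of -0.84 was not called and turned to 0.14 with quantile normalization, while 1 fit over all 12 libraries called it lower. RGI1, induced by respiratory growth, and ALD3, an aldehyde dehydrogenase 91.9% identical to ALD2, were lower late than early by log2 differences of -3.58 and -2.84. ALD3 stood at 9978 and 9030.1 early and 1869.7, 1090.3 and 1135 late. ARO9 and CHA1, which break down aromatic amino acids and serine and threonine, were also lower (log2 differences -2.88 and -2.63). ARO9 stood at 285, 255 and 252 late, under its untreated 836 and 791, and CHA1 at 264, 315 and 325, under 1058 and 1011. Without the 90 min library neither was called (adjusted p 0.056 and 0.0506 in limma), nor ARO9 without the 120 min library (0.0566).

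Ribosome genes had partly returned by 60 min. Against untreated the ribosomal protein median was -3.11 and -2.48 at 15 and 30 min and -1.43, -1.56 and -1.86 after. It was thus lower again at 120 min than at 60 min. Of 122 ribosome assembly genes 107 were called higher late than early and none lower (median log2 difference 1.56), and of 138 ribosomal protein genes 120 higher and none lower (median 1.23). Without the 90 min library only 202 of all tested genes were called, 62.9% of them higher. The counts of 107 and 120 thus cannot both hold without it. KRE33, an RNA acetyltransferase of the small subunit, stood at 9.15 and 55.7 early, 169.8, 176 and 159 late and 1319 and 1436 untreated. SSF1, a factor of the large subunit, was higher late than early by a log2 difference of 2.68, and is 92.2% identical to SSF2. DHR2 had 2 and 3 reads early and 21, 32 and 36 late. LEU9, of leucine synthesis, stood at 54.9 and 147 early and 603, 699.8 and 655 late, and the ergosterol gene ERG3 at 570.4 and 469 early and 1522, 1839.5 and 1547 late. In all of these the late libraries lie between the early and the untreated ones. Without the 90 min library DHR2, KRE33 and SSF1 were not called (adjusted p in limma 0.0799, 0.0644 and 0.0506), and KRE33 was not called without any one of the late libraries, nor DHR2 without the 120 min library or with quantile normalization (adjusted p 0.0507 and 0.0614).

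Other lists took paths of their own. Of 32 proteasome genes 29 were called lower late than early (median log2 difference -0.67), or 11 with equal totals, and their median against untreated was 0.56 and 0.21 at 15 and 30 min and -0.35, -0.37 and -0.35 after. The ER folding list was 7 higher and none lower of 25 (median 0.27), or 17 higher with equal totals, and the histone list 3 lower of 11 (median -0.78), or none with equal totals, with list medians against untreated of -0.62 and -1.31 at 15 and 30 min and -1.77, -1.60 and -1.43 after. Histone genes were thus lower at 60 min than at either early time in the median.

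**Figure D5:**
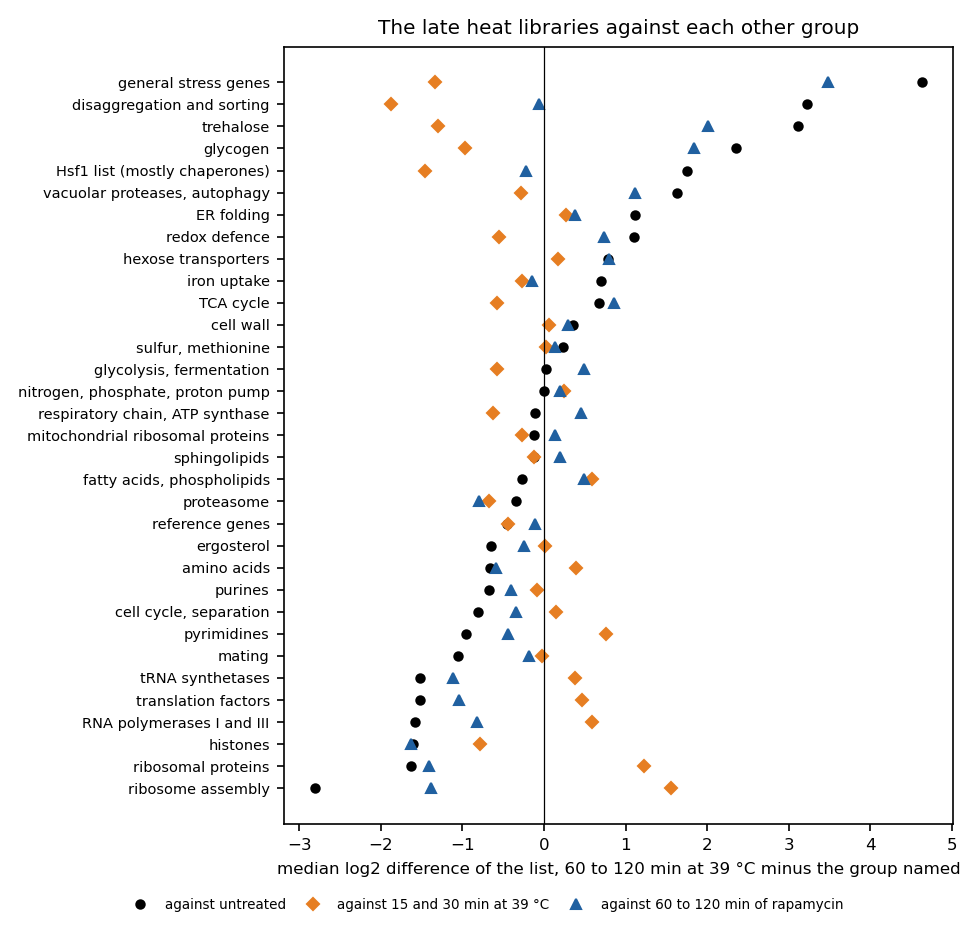
Median log2 difference of 33 gene lists between the late heat libraries and the untreated (black circles), early heat (orange diamonds) and late rapamycin (blue triangles) libraries. For general stress genes the medians are 4.64, -1.33 and 3.48, and for the Hsf1 list 1.75, -1.46 and -0.22.

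At matched times of 60, 90 and 120 min, heat and rapamycin gave different states. Of 4937 genes 3408 differed (69.0%), 1581 higher in heat (32.0%) and 1827 lower (37.0%). Higher genes were 46.4% of the calls as deposited and 63.9% with equal totals. No untreated library enters this comparison. Rapamycin here both moves Sis1 out of the nucleus and is present for up to 120 min, and what each does to a gene cannot be told apart in these libraries.

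The Hsf1 list differed both ways between heat and rapamycin, the general stress genes in 1 direction. Of the 35 genes of the Hsf1 list 9 were higher in heat and 17 lower, with a median log2 difference of -0.22 that turned to 0.02 with equal totals (13 higher, 14 lower) and 0.12 with quantile normalization (17 higher, 12 lower), while 40 of 41 general stress genes were higher and none lower (median 3.48). HSP12 stood at 40184, 33972 and 32908 in late heat and at 498, 423 and 445 in late rapamycin, and HSP26 at 6722, 7928 and 9689 in heat and 61, 78.6 and 103 in rapamycin. HSP42 stood at 2549.9, 2494 and 2359 in heat and 2661, 2573 and 2478 in rapamycin and was not called, with a log2 difference of -0.06 ± 0.09 (SE) that turned to 0.19 with equal totals and 0.37 with quantile normalization, both called higher. HSP82 was not called either (0.19 ± 0.13, SE), but was called higher in heat with equal totals (0.43), quantile normalization (1.00) and without the 120 min heat library (0.28). SSA4 was lower in heat, at 4303, 4415 and 3863 against 27861, 23062 and 21908, as were HSP104, BTN2 and SIS1, with log2 differences of -0.79, -1.90 and -1.42, of which that of HSP104 was not called after quantile normalization (adjusted p 0.0507 in limma). KAR2 stood at 21017, 26204 and 25762 in heat and 19074, 24913 and 28963 in rapamycin and was not called (0.01 ± 0.20, SE).

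TDH1 and PIR3 were high in heat and near their untreated values in rapamycin, TDH1 at 91.5, 97 and 95.9 and PIR3 at 112, 75.7 and 63. The reverse held for ZPR1, a chaperone of the elongation factor eEF1A, which stood at 1379 and 1105 untreated, 356, 422 and 420.5 in late heat and 4355, 3693 and 3099 in late rapamycin. It was thus lower than untreated in late heat (log2 change -1.63) and lower than in rapamycin (-3.20). SCW10, a wall glucanase, and HXT2 were also lower in heat, by log2 differences of -3.0 and -2.96. Ribosome assembly genes were lower in heat at 121 of 122 members (median -1.38) and ribosomal protein genes at 135 of 138 (median -1.41). DBP2 and NSR1 led them. In rapamycin DBP2 stood at 696, 526 and 508 and NSR1 at 1257, 1163 and 909. Proteasome genes were lower in heat at 31 of 32 (median -0.80) and histone genes at 9 of 11 (median -1.63).

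A few genes kept moving between 60 and 120 min, as differences of 2 libraries with no test. HXT1, the low-affinity glucose transporter, went through 145, 456 and 993, a log2 difference of 2.76 from 60 to 120 min, against 1128 and 747 untreated. HXT3, of the same class, went through 240.4, 649 and 970.3, and OLE1, the only fatty acid desaturase of yeast, through 1555, 3669.8 and 5678, against 9043 and 7891 untreated and 762 and 594 at 15 and 30 min. CHS2, the chitin synthase of the septum, went through 107, 235 and 364, and CLB1, a mitotic cyclin, through 71.5, 110.0 and 228. CLB2, its close relative, went through 37.8, 62.7 and 108 in the same way. Of these genes HXT1 reached the untreated range at 120 min, and the others stayed below it.

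Wall and nutrient genes moved down in the same hour. CWP1, a mannoprotein of the wall, went through 2695, 1556 and 776 against 563 and 511 untreated, and PST1 through 8109, 4219.5 and 3513. GAP1, the general amino acid permease, went through 2925, 1435 and 999, SHM2, a serine hydroxymethyltransferase, through 2633, 1668 and 1087, and SAM1 through 463, 334 and 203. The 60 min values of GAP1 and SHM2 lie above both untreated libraries, which are 1236 and 1123 for GAP1 and 1617 and 1008 for SHM2, and the 120 min values do not lie above both. Neither gene was called in the comparison with untreated as deposited. Both were called higher with equal totals (log2 changes 0.84 and 0.79), quantile normalization (0.92 and 0.90) and without the 120 min library (0.80 and 0.71). For all these genes the late mean hides a course, and the drift widens its error.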

How the data were processed

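The deposited values are 1 table of gene-level signal, read counts scaled by the authors and named normalized in the header, with 1 column per library. Bowtie, HTSeq and sacCer3 are named in the submitters' processing notes without role or version. The scaling method, the annotation and the use of strand are not given in the sources used here. Every value was a whole multiple, within 0.05, of 1 step per library, which was taken as what 1 read is worth and gave the reads quoted. The late heat libraries hold too few low values to settle this by the check applied. Their reads, and the counting intervals that use them, thus rest on an assumption. Intervals and floors cover counting error only.

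Values were compared as log2(value + 1), which understates changes of low genes, where the 12-library mean reached 10. Each comparison was a limma fit (3.58.1, R 4.3.3) of group means on its own libraries (eBayes, trended prior), with 3, 3 and 4 residual degrees of freedom and 7.18, 3.82 and 6.21 prior ones for untreated, early heat and late rapamycin. The fit against untreated was also run on simulated data with independent noise and few changed genes. That setting lacks the drift and the many changes of these libraries, so it does not check the calls made here. Of 5045 gene IDs 5023 were found in R64 and 22 were not. Near-identical partners were found with blastn 2.17.0.

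The libraries, gene lists and tests were chosen with earlier results of these data known. Named genes are the 10 largest rises and falls, the 3 largest called changes per list and the largest against its direction, fixed stress genes, the 5 largest differences each way in the other comparisons, and the 5 largest each way from 60 to 120 min, all with a mean of at least 50. One gene that this rule names is not reported here. Genes named beyond that rule were chosen after their values were seen: BTN2, SSA1, SSA3, HSC82, YDJ1, HSP78, HSP60, STI1, SSE1, SRX1, ERO1, SLT2, HHO1, CLN1, CLN2, CLB2, STE3, and the isozyme pairs.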

Additional observations from a re-analysis of the deposited data

Results flagged for a closer look

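A test of the difference itself set the late heat libraries apart from other groups in both comparisons that hold no untreated library. They differed from the early heat libraries at 1832 genes and from the rapamycin libraries of the same times at 3408 genes. Examples are the Hsf1 list (median log2 difference -1.46 from early heat and -0.22 from rapamycin) and the general stress list (-1.33 and 3.48). The Hsf1 median against rapamycin turned to 0.02 with equal totals and 0.12 with quantile normalization, with calls both ways, so that list differs by gene and not in a shared direction. No group holds 4 libraries, so single libraries were not examined for standing apart.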

How the results depend on the processing

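Against untreated, 3542 genes were called, and the count stayed between 3437 and 3569 under other pseudocounts, filters, scalings and 1 fit over all 12 libraries, and between 3196 and 3439 without 1 library each. A test for changes beyond 2-fold called 1101. Against early heat, with 1832 called, these settings gave 1519 to 2302, the 2-fold test 1, and leaving out 1 library each 202 to 2582, lowest without the 90 min library. Against late rapamycin, with 3408 called, they gave 3116 to 3473, the 2-fold test 607, and leave-one-out 3079 to 3317. Where 1 library was left in a group, it was assumed to vary like the others.

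List medians that changed sign against untreated were those of the respiratory chain (0.28 with equal totals, 0.34 with quantile normalization), fatty acids and phospholipids (0.13 and 0.15), sphingolipids (0.27 and 0.06, and -0.19 to 0.02 without single libraries), the proteasome (0.06 with equal totals), mitochondrial ribosomal proteins (0.27 with equal totals) and glycolysis (-0.04 at a mean of at least 50, and -0.10 to -0.05 without single libraries). The all-gene median went from -0.08 to 0.31 with equal totals. Against early heat HSP12 turned to 0.14 with quantile normalization, and against rapamycin HSP42 to 0.19 with equal totals and 0.37 with quantile normalization and KAR2 to -0.04 with quantile normalization and -0.15 to 0.15 without single libraries. Single genes with a sign change against untreated were ACT1 (0.24 with equal totals, 0.53 with quantile normalization), CLN1 (0.18 with equal totals), CLN2 (0.33, 0.01 and 0.02 with equal totals, quantile normalization and TMM, and -0.42 to 0.30 without single libraries), SEC63 (0.00 with equal totals, 0.16 with quantile normalization), SSE1 (0.10 and 0.62), YDJ1 (0.20 with quantile normalization) and HHO1 (-0.32 to 0.44 without single libraries). The cause was not tested.

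The labels give no replicate numbers, and late heat and late rapamycin share only their times. With time as a replicate block, chosen after seeing the data, that comparison called 3495 genes in place of 3408, and no call of a gene examined in both changed. Deviations from the group means of libraries of equal time correlated over genes at 0.20, 0.03 and 0.15 for 60, 90 and 120 min, and the 90 min heat library correlated best with the 120 min rapamycin one (0.13), so time is not taken as pairing them. The planned count tests were not run, since the 3 late heat columns hold only 65 to 82 values within 20 reads, too few to settle whole reads by the check applied. Depth limits the folds of SIP18, SPG4 and SRX1, with under 5 reads in each untreated library.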
